A study of Mus musculus with 16 samples.

Results

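Fibronectin and 7 further adhesive and matricellular glycoproteins of the extracellular matrix were followed in cultured mouse embryonic fibroblasts across Zac1 genotype and day in vitro. The genes were Fn1, Tnc, Tnxb, Postn, Sparc, Sparcl1, Tgfbi and Vtn, chosen by symbol, and they are 8 of the 23100 genes in the deposited count table. The fibroblasts, connective tissue cells, came from E13.5 embryos of C57BL/6 mice and were grown in medium with fetal bovine serum. They were either wildtype (Zac+/+) or Zac1 mutant (Zac+/-). The titles of the mutant samples carry the code KOpat, which the labels do not explain. Zac1 is the older name of Plagl1, a zinc finger transcription factor gene that is imprinted and expressed from the paternal copy. Each genotype had 2 cell lines, numbered replicate 1 and replicate 2, and each line was harvested at day 2, while proliferative, and at days 8, 10 and 12, when quiescent. This gave 16 RNA-seq libraries in 8 groups of genotype and day. The sources used here did not give how many embryos a line came from, so p-values measure the spread between these lines.

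The 8 genes encode secreted proteins with different roles in the matrix. Fibronectin (Fn1) is an adhesive glycoprotein that cells bind through integrins and assemble into fibrils. Matricellular proteins, among them tenascin-C (Tnc), periostin (Postn), SPARC and its relative hevin (Sparcl1), modulate how cells attach and how collagen is laid down rather than forming the scaffold themselves. Tenascin-X (Tnxb) binds collagen fibrils, and its loss in humans causes a form of Ehlers-Danlos syndrome. The TGF-beta-induced protein (Tgfbi) is built, as periostin is, from fasciclin domains, and vitronectin (Vtn) is an adhesive plasma protein made mainly by the liver. Several of these proteins are abundant products of fibroblasts and change in wound repair and tissue growth.

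RefSeq promoter sequences (build GRCm38.p6) matched 6 of the 8 genes by symbol, with 8 transcription starts in all, and no entry was matched for Fn1 or Sparcl1. The 120 bases before a start are shown for 5 genes whose level was tested, 1 start each, read 5′ to 3′ on the gene's strand. Capitals mark the motifs searched for: the TATA box as TATAAA or TATATA and the AP-1 site as TGANTCA.
Postn, chr3:54360987-54361106, plus strand: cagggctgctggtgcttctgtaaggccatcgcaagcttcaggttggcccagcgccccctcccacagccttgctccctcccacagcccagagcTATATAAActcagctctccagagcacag
Tnc, chr4:64046937-64047056, minus strand: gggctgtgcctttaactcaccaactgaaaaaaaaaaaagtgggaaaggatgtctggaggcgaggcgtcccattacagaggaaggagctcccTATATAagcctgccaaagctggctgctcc
Sparc, chr11:55420081-55420200, minus strand: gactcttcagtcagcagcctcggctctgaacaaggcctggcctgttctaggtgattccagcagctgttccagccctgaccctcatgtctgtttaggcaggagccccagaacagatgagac
Tgfbi, chr13:56609466-56609585, plus strand: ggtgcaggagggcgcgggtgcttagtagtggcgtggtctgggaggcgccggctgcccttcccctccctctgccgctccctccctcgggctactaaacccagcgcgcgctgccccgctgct
Tnxb, chr17:34670415-34670534, plus strand: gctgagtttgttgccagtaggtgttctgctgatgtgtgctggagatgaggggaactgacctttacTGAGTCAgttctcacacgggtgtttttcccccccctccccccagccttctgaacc

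Postn, the member with the largest rise at quiescence, and Tnc, the member that fell, both held TATA letters close to 1 of their 2 starts, which is the start shown for that reason. In Postn TATATA lay 28 to 23 bases before the start and overlapped TATAAA at 26 to 21 bases, and in Tnc TATATA lay 29 to 24 bases before it. At the other start, Postn had neither form within 250 bases, and Tnc had TATAAA only, at 126 to 121 bases. Both strands were searched, and across 32851 RefSeq starts 6.34% held TATAAA and 2.51% held TATATA within 120 bases. Tnxb held the AP-1 letters 55 to 49 bases before its start, as 3.41% of starts did in that length. Searched over 250 bases before the start, Vtn held TATAAA at 135 to 130 bases and the TEAD letters GGAATG at 234 to 229 bases, and 12.4% and 12.6% of all starts held these. The letters GGGGCCCC, a GC-rich palindrome, and CACGTG, an E-box, were in no member window, against 0.889% and 6.02% of all starts over 250 bases. None of the 6 motifs was found in the Sparc or Tgfbi window. These matches describe the letters in the windows and no binding was measured.

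The labels were checked with the mutated gene and with marker genes. Mutant cells had less Plagl1 than wildtype cells, both at day 2 (log2 -2.31, SE 0.16, edgeR's quasi-likelihood test, adjusted p = 8.50e-04) and in the quiescent sums (log2 -1.88, SE 0.15, adjusted p = 0.00297). Total counts ran from 28079241 to 61039793 per library. All 7 fibroblast markers were detected, and their summed level was 11513 to 12665 CPM (counts scaled to the library's total by the TMM method) at day 2 and 23085 to 29800 CPM at days 8 to 12. Col1a1 and Col1a2 reached the highest levels among these 7 genes, 11390 and 14491 CPM. Among the 7 genes 5 rose and 1 fell in each genotype. Of all genes tested, 23.9% were called higher and 23.7% lower in wildtype cells, and 21.1% and 21.0% in mutant cells. Over the same change of state, endothelial markers summed to 14.5 to 19.7 and then 2.97 to 7.60 CPM, with Tie1 at 0 throughout. Of the 4 tested endothelial genes, 1 rose and 2 fell in wildtype cells, and 1 rose and 1 fell in mutant cells. The summed level of smooth muscle markers (4 of 4 detected) went from 5928 to 7371 CPM to 3893 to 5341, but of the 4 genes 1 rose and 1 fell in each genotype. The sum of pericyte markers (6 of 7 detected, Higd1b at 0) went from 408 to 480 CPM to 270 to 328, while of the 6 tested genes 3 rose and 2 fell in wildtype cells (median log2 1.36) and 2 rose and 2 fell in mutant cells (median 0.43). Tendon markers (3 of 3 detected) were higher at quiescence, at 27.4 to 35.4 CPM on day 2 and 58.0 to 82.6 later, and 2 of the 3 rose in wildtype and all 3 in mutant cells. Cartilage markers (5 of 5 detected) were at 67.2 to 425 CPM and macrophage and blood markers (7 of 7) at 4.89 to 146 CPM over the 16 libraries, and both differed between lines of a genotype. The part of these other cell types in the results was not tested, and in bulk RNA fewer cells of a type and less RNA per cell cannot be told apart.

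The members covered a wide range of levels. Compared per kilobase of exon, Sparc and Fn1 were highest at day 2 in wildtype cells, with Sparc at 1086 and 1051 CPM per kilobase and Fn1 at 1085 and 1171 in replicates 1 and 2. Their values overlapped, so the order of these 2 genes at day 2 was not resolved by this length. The longest transcript has 2300 bases against 2721 in the exon union for Sparc, and 8315 against 8479 for Fn1. By that length Sparc would stand higher against Fn1. Tnc followed at 313 CPM per kilobase in both wildtype lines, then Postn at 127 and 78.4 and Tgfbi at 6.00 and 6.05. Sparcl1, at 0.284 and 0.184, and Tnxb, at 0.139 and 0.184 CPM per kilobase, were lowest among the 7 members with reads at day 2, the lower Sparcl1 value lying just above the higher Tnxb value.

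At quiescence Postn passed Tnc. Postn, at 364 to 926 CPM per kilobase over the 6 quiescent wildtype libraries, then stood above Tnc at 142 to 236, and in the 6 mutant libraries the ranges were 351 to 1118 and 135 to 225. Sparc, at 2167 to 2889 in wildtype, overlapped Fn1, at 1960 to 2420. Day by day, both wildtype lines had more Sparc than Fn1 at day 10 (2644 and 2494 against 1960 and 2374 CPM per kilobase) and at day 12 (2889 and 2794 against 1990 and 2420). The mutant lines also had more Sparc at day 10 (2808 and 3084 against 2591 and 2090), and overlapped at day 12 (2939 and 2872 against 2811 and 2960). At day 8 the genes overlapped in both genotypes. These overlaps of Sparc and Fn1 depend on the length used, which is the union of exons. Tgfbi lay at 28.3 to 42.0 CPM per kilobase in wildtype and 28.8 to 34.2 in mutant libraries. The lowest pair lay further apart in wildtype cells at quiescence, where Sparcl1 was at 0.656 to 1.38 and Tnxb at 0.166 to 0.567 CPM per kilobase, and overlapped in mutant cells at 0.398 to 0.711 and 0.203 to 0.812.

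**Figure D1:**
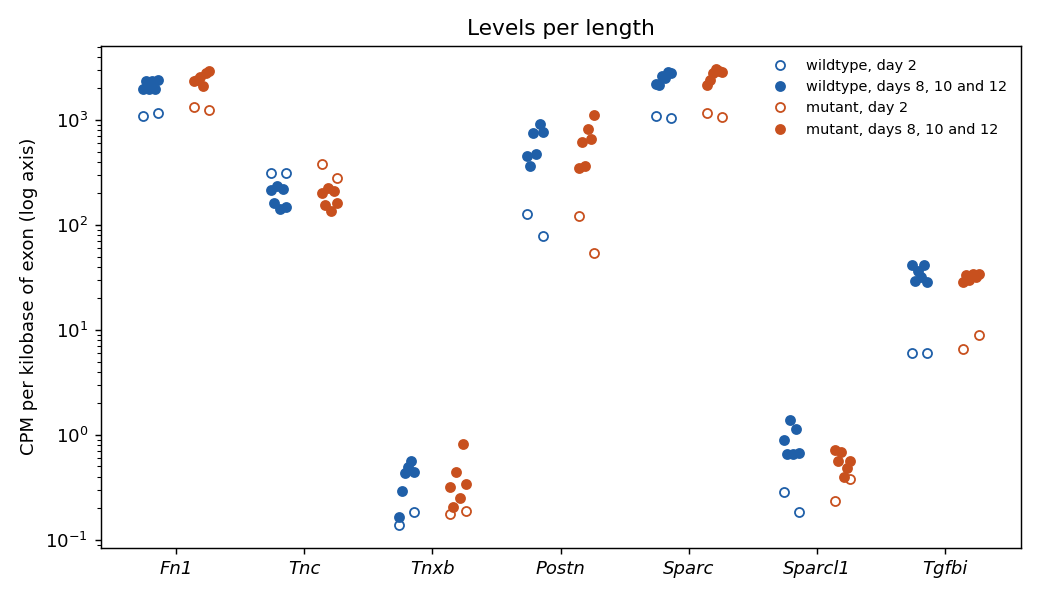
Level per kilobase of exon on a log axis for the 7 members with reads in every library, 1 point per library, by genotype and state (open for day 2, filled for days 8, 10 and 12). Sparc and Fn1 sit together at the top, Postn moves from below Tnc to above it at quiescence, and Sparcl1 and Tnxb sit lowest.

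Fn1 was among the most abundant transcripts of these cells. Wildtype replicates 1 and 2 were at 9204 and 9925 CPM at day 2, 16718 and 20022 at day 8, 16622 and 20131 at day 10, and 16872 and 20519 at day 12. In mutant replicates 1 and 2 it was 11404 and 10469, 20058 and 20362, 21970 and 17725, and 23836 and 25099 CPM on the same days. Every quiescent library was above every day 2 library, and in wildtype cells the level hardly moved between days 8 and 12. Fn1 took 0.872% to 2.43% of a library's counts and ranked 2 or 3 by count at day 2 and 1 in all 12 quiescent libraries. The 95% counting interval of that share (exact Clopper-Pearson) reached at most 0.351% of the value to either side, far less than the difference between lines, and such intervals cover counting error only.

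Tnc, whose product counters adhesion to fibronectin, was the member that was lower at quiescence. At day 2 wildtype replicates 1 and 2 had 2432 and 2431 CPM, then 1676 and 1263, 1835 and 1103, and 1700 and 1155 at days 8, 10 and 12. In the mutant lines it was 2964 and 2196 CPM at day 2 and 1553 and 1202, 1752 and 1052, and 1651 and 1273 at the later days. All day 2 values lay above all quiescent values, and at each quiescent day replicate 1 lay above replicate 2 in both genotypes. Tnxb, the collagen-binding tenascin, was near the lower end of what these libraries measure, with 57 to 398 reads. It was at 1.70 and 2.25 CPM at day 2 in wildtype replicates 1 and 2 and at 2.03 and 3.55, 5.35 and 6.00, and 6.92 and 5.41 at days 8, 10 and 12. The mutant values were 2.16 and 2.29 CPM at day 2, then 3.93 and 2.48, 5.44 and 3.07, and 9.92 and 4.18. Here the single libraries of the states overlapped, since wildtype replicate 1 at day 8 was still at a day 2 level.

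Periostin and the TGF-beta-induced protein, the fasciclin-domain pair, rose most. Postn was at 418 and 258 CPM in wildtype replicates 1 and 2 at day 2 and at 1483 and 1198, 2459 and 1569, and 3046 and 2507 at days 8, 10 and 12. In mutant replicates 1 and 2 it was at 399 and 179 CPM, then 1153 and 2042, 1191 and 2727, and 2155 and 3677. Both genotypes climbed from day 8 to day 12, but the lines were ordered differently: at quiescence replicate 1 was the higher line in wildtype and replicate 2 in mutant cells. Macrophage and blood markers were higher at quiescence in wildtype replicate 2 (37.8 to 76.9 CPM) and mutant replicate 1 (63.4 to 146) than in wildtype replicate 1 (9.56 to 26.0) and mutant replicate 2 (4.89 to 25.2), the lines with less and more Postn in turn. At day 2 wildtype replicate 2 again had more of these markers (25.1 against 8.27 CPM) and less Postn than replicate 1. Mutant replicate 1, however, then had more of both than replicate 2 (markers at 32.9 against 4.99 CPM). The part of these markers in the Postn levels was not tested. Tgfbi, by contrast, was level after day 8. Its values were 16.3 and 16.4 CPM at day 2 in wildtype replicates 1 and 2, then 112 and 78.7, 98.4 and 85.9, and 114 and 76.9 at days 8, 10 and 12. In the mutant lines it was at 17.8 and 24.1 CPM, then 78.2 and 91.6, 81.2 and 92.8, and 86.6 and 92.0. The states did not overlap for either gene.

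Sparc, which encodes a collagen-binding protein, had the smallest SE of the 7 tested members in the comparisons of states and of genotypes. Wildtype replicates 1 and 2 had 2955 and 2859 CPM at day 2, 6015 and 5897 at day 8, 7194 and 6787 at day 10, and 7860 and 7604 at day 12. Mutant replicates 1 and 2 had 3207 and 2919, 5831 and 6492, 7640 and 8392, and 7998 and 7815 CPM. Its relative Sparcl1 was scarce in every library, with 19 to 194 reads per library. It was at 0.833 and 0.541 CPM in wildtype replicates 1 and 2 at day 2 and at 2.62 and 1.94, 4.04 and 1.93, and 3.37 and 1.98 at days 8, 10 and 12. The mutant values were 0.695 and 1.11 CPM at day 2 and 2.09 and 1.65, 2.01 and 1.17, and 1.41 and 1.66 later. Wildtype replicate 1 was the highest library at each quiescent day, and the counting interval alone reached 14.3% to 48.0% of the value to either side.

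Vtn was at or near 0. No read was counted in the 4 day 2 libraries or in the 8 libraries of the replicate 2 lines. Wildtype replicate 1 had 0, 2 and 11 reads at days 8, 10 and 12, and mutant replicate 1 had 8, 2 and 1. The highest of these was 0.191 CPM, and a count of 0 allows a level of up to 0.0507 to 0.110 CPM (3 reads of the library). Liver cell markers were scarce too, at 0.451 to 1.43 CPM in all over 7 genes. Vtn did not pass the filter on low counts, so the tests cover 7 of the 8 members.

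**Figure D2:**
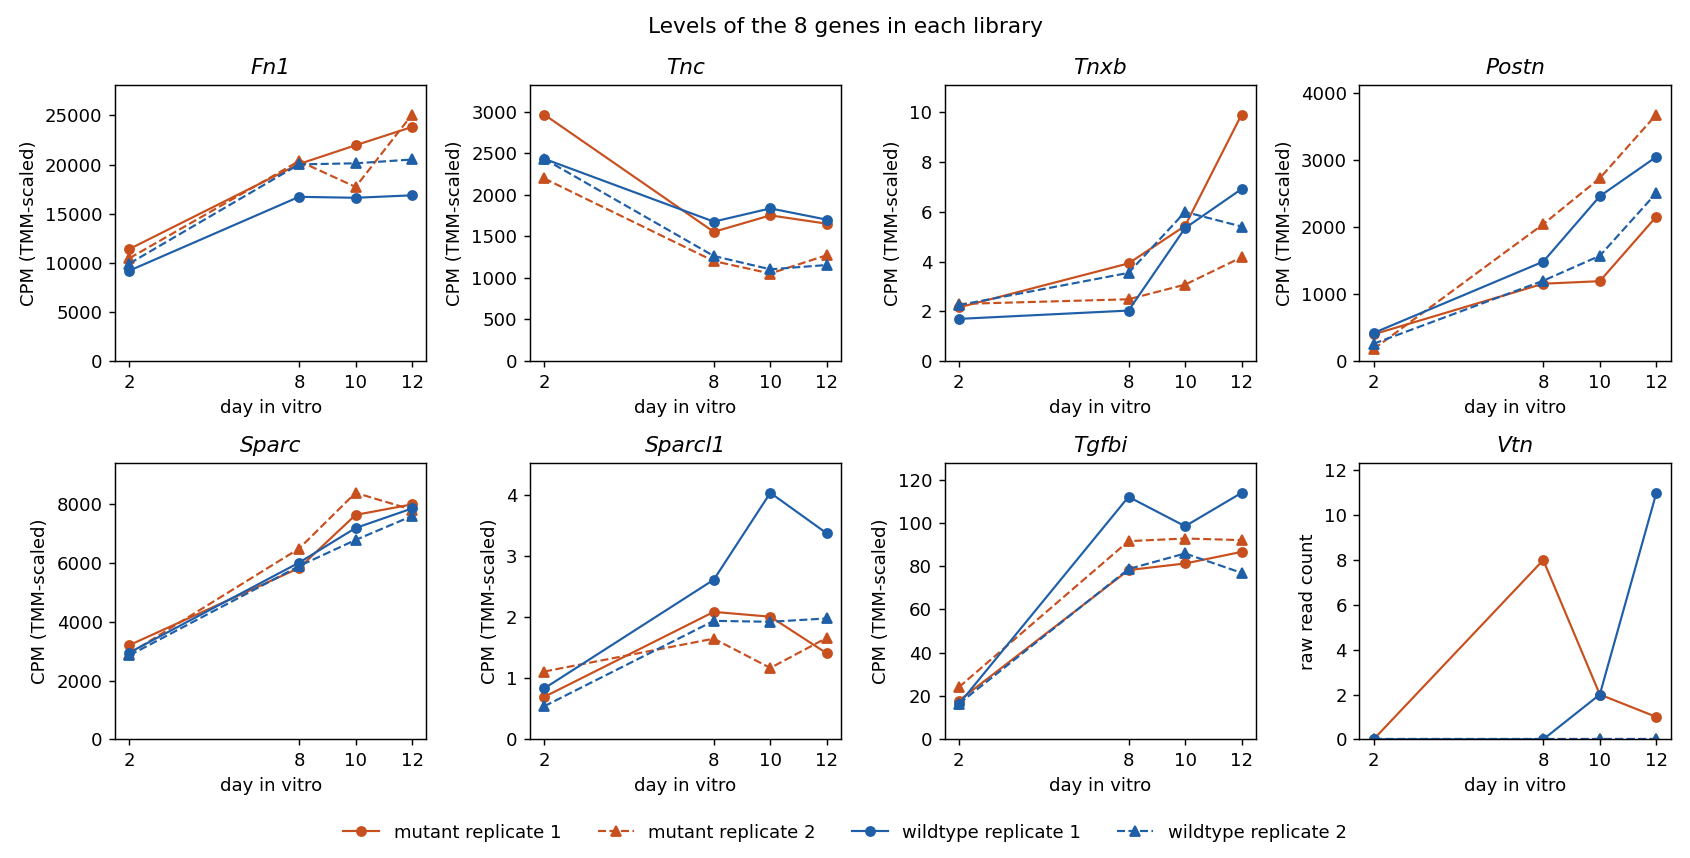
Level of each of the 8 genes against day in vitro, in TMM-scaled CPM (raw read counts for Vtn), with 1 line per cell line, coloured by genotype and dashed for replicate 2. 6 panels rise after day 2, Tnc falls, the Postn lines are ordered differently in the 2 genotypes, and Vtn has reads in the replicate 1 lines only.

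The comparison of states asked how the matrix genes differ between growing and resting fibroblasts. The 3 quiescent harvests of each line were summed, and the sums of a genotype were set against its day 2 libraries as groups. The libraries of a line were not paired in this fit. In wildtype cells 6 of the 7 tested members rose and 1, Tnc, fell. Of all 15740 genes tested, 23.9% were called higher and 23.7% lower (edgeR's quasi-likelihood test, Benjamini-Hochberg adjusted p under 0.05), and the median log2 fold change was 1.31 over the members and 0.05 over all genes. Between summed libraries, mean ± SD over 2 lines, Postn went from 334 ± 110 to 2029 ± 422 CPM and Tgfbi from 16.1 ± 0.173 to 93.6 ± 20.0. These are rises of 6.08-fold (log2 2.60, SE 0.55, edgeR adjusted p = 0.0119) and 5.79-fold (log2 2.53, SE 0.19, edgeR adjusted p = 6.57e-06). The folds were alike, but the lines differed more for Postn and its SE was wider. Sparcl1 rose 3.88-fold (log2 1.95, SE 0.42, edgeR adjusted p = 0.00376) from 0.678 ± 0.200 to 2.60 ± 0.957 CPM. Tnxb rose 2.48-fold (log2 1.31, SE 0.32, edgeR adjusted p = 0.00709) and Sparc 2.38-fold (log2 1.25, SE 0.11, edgeR adjusted p = 1.27e-05). Fn1, the most abundant member by count, rose 1.93-fold from 9449 ± 550 CPM at day 2 to 18250 ± 2374 (log2 0.95, SE 0.12, edgeR adjusted p = 1.64e-04). Tnc dropped by 40.3% from 2402 ± 10.9 CPM at day 2 to 1433 ± 395 (log2 -0.75, SE 0.23, edgeR adjusted p = 0.0270).

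In Zac1 mutant cells 5 of the 7 members rose and Tnc fell, against 21.1% of all genes called higher and 21.0% called lower, with a median log2 of 1.00 over the members and 0.05 over all genes. The 2 comparisons use different cell lines but share the estimate of spread. Postn again had the largest change, from 286 ± 153 CPM at day 2 to 2026 ± 928 (7.08-fold, log2 2.82, SE 0.55, adjusted p = 0.0106 by edgeR). Tgfbi rose 4.10-fold from 20.8 ± 4.47 CPM at day 2 to 85.8 ± 7.64 (log2 2.04, SE 0.18, edgeR adjusted p = 2.68e-05). Sparc and Fn1 rose by log2 1.24 (SE 0.11, adjusted p = 1.79e-05) and 0.94 (SE 0.12, adjusted p = 2.18e-04), sizes close to those of wildtype cells. Tnxb rose by log2 1.00 (SE 0.32, edgeR adjusted p = 0.0288) and Tnc fell by 0.88 on the log2 scale (SE 0.23, adjusted p = 0.0152). Sparcl1 went from 0.897 ± 0.296 to 1.68 ± 0.308 CPM, a log2 difference of 0.88 (SE 0.41) that missed the threshold (edgeR adjusted p = 0.112).

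The calls for Fn1, Sparc and Tgfbi held in both genotypes under all 16 alternatives tried, while calls of the other 4 members were lost in some of them. The number of wildtype calls was 4 without wildtype replicate 1, when Tnxb, Postn and Sparcl1 no longer passed (log2 1.14, 2.75 and 1.83, edgeR adjusted p = 0.122, 0.161 and 0.0524). It was also 4 without wildtype replicate 2, when Tnxb, Postn and Tnc no longer passed (log2 1.49, 2.47 and -0.51, edgeR adjusted p = 0.0610, 0.166 and 0.253). These fits have 1 wildtype line and fewer degrees of freedom, and over all genes, too, fewer were called in wildtype cells than with both lines. The log2 changes of the members stayed close to those with both lines except for Tnc. In mutant cells Tnxb lost its call in 7 of the 16 alternatives, among them leaving out mutant replicate 1 (log2 0.41, edgeR adjusted p = 0.443). The mutant log2 change of Postn was 1.81 to 3.88 as the mutant lines were left out in turn, and passed in both fits. It did not pass when wildtype replicate 1 or 2 was left out or when only mutant libraries were fitted (edgeR adjusted p = 0.0706, 0.0590 and 0.0589), with the log2 change at 2.80, 2.80 and 2.83. Tnc did not pass a test against a fold change of 1.5 in either genotype (edgeR adjusted p = 0.292 and 0.168).

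**Figure D3:**
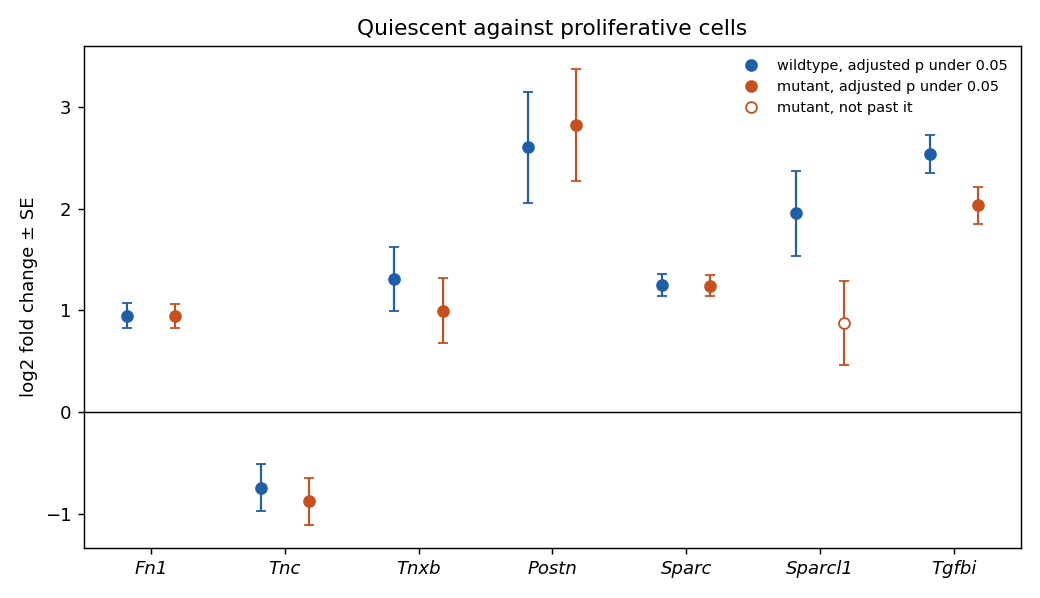
Log2 fold change of quiescent sums against day 2 for the 7 tested members, with bars of 1 SE, in wildtype and mutant cells (filled where the edgeR adjusted p is under 0.05). All but Tnc lie above 0, and mutant Sparcl1, at 0.88, is the 1 change that did not pass.

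Within quiescence, Postn, Tnxb and Sparc were each higher at day 12 than at day 8 in all 4 lines. The share of all genes that did the same was not computed. By edgeR, 0 of the 7 members were called between these days in either genotype, against 0.816% of 15439 genes in wildtype and 1.09% in mutant cells, and 2 members had an unadjusted p under 0.05 in each, as did 1214 and 1350 of the 15439 genes. Sparc differed by log2 0.38 in wildtype (SE 0.11, edgeR adjusted p = 0.219) and 0.36 in mutant cells (SE 0.11, adjusted p = 0.217), and DESeq2 called it in both (adjusted p = 0.00164 and 0.00284). Tnxb differed by log2 1.14 (SE 0.41, edgeR adjusted p = 0.419) and 1.13 (SE 0.41, adjusted p = 0.377). Postn differed by log2 1.05 (SE 0.52, edgeR adjusted p = 0.728) and 0.87 (SE 0.52, adjusted p = 0.735). For Fn1 the wildtype lines stayed within 0.04 on the log2 scale between days 8 and 12, while the mutant lines were higher at day 12 by 0.25 and 0.30. The fitted Fn1 difference was 0.03 (SE 0.15) in wildtype and 0.28 (SE 0.15, edgeR adjusted p = 0.672) in mutant cells. This fit over the 16 single libraries treats the harvests of a line as if they were independent. With the cell line as a block, which pairs the harvests, the calls over all genes went from 126 to 304 in wildtype and from 168 to 319 in mutant cells, and 0 members were among them.

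The comparison of genotypes asked whether these matrix genes depend on Zac1, as the title of the series has it for matrix genes in general. In proliferative cells 0 of the 7 members were called, against 0.00635% of all genes, which is Plagl1 alone (451 genes had an unadjusted p under 0.05, none of them a member). Fn1 levels were 9449 ± 550 CPM for the wildtype and 10855 ± 613 for the mutant lines, a log2 difference of 0.20 (SE 0.12), and Tgfbi at 16.1 ± 0.173 and 20.8 ± 4.47 CPM, a difference of 0.37 (SE 0.18). The lines of the genotypes did not overlap for these 2 members, as for 23.8% of all genes. Sparcl1 differed by 0.45 (SE 0.43), Tnxb by 0.17 (SE 0.32), Tnc by 0.09 (SE 0.23), Sparc by 0.08 (SE 0.10) and Postn by -0.22 (SE 0.52) on the log2 scale, with overlapping lines. The edgeR adjusted p was 1.00 for each.

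In the quiescent sums, too, 0 of the 7 members were called, against 0.00635% of all genes (76 genes, none of them a member, had an unadjusted p under 0.05). The sums weight each day by its depth. Day 12 had 32031720 and 37207510 counts in the mutant lines against 55575315 and 54325235 in the wildtype lines, so it weighs less in mutant sums. Equal weights for the days were not tested. Sparcl1 had the largest difference, with 2.60 ± 0.957 CPM for the wildtype against 1.68 ± 0.308 for the mutant lines (log2 -0.63, SE 0.39, edgeR adjusted p = 1.00). Its lines did not overlap, nor did those of Fn1, at 18250 ± 2374 and 20877 ± 743 CPM (log2 0.19, SE 0.12), while 22.7% of all genes had lines that did not overlap. Left out in turn, single lines moved the Sparcl1 difference between -0.96 and -0.20. For the other members the log2 difference was 0.08 (SE 0.10) for Sparc, -0.04 (SE 0.23) for Tnc, -0.13 (SE 0.17) for Tgfbi, -0.14 (SE 0.30) for Tnxb and -0.0022 (SE 0.52) for Postn. Among these, the SE was smallest for Sparc and largest for Postn, whose lines differed more within a genotype than the genotypes did. Replicates 1 and 2 had 2327 and 1730 CPM of Postn in wildtype and 1370 and 2682 in mutant cells. A p that misses the threshold with 2 lines a group does not show that the genotypes are alike, and the smallest two-sided p of an exact permutation test with 2 lines per group is 0.333.

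**Figure D4:**
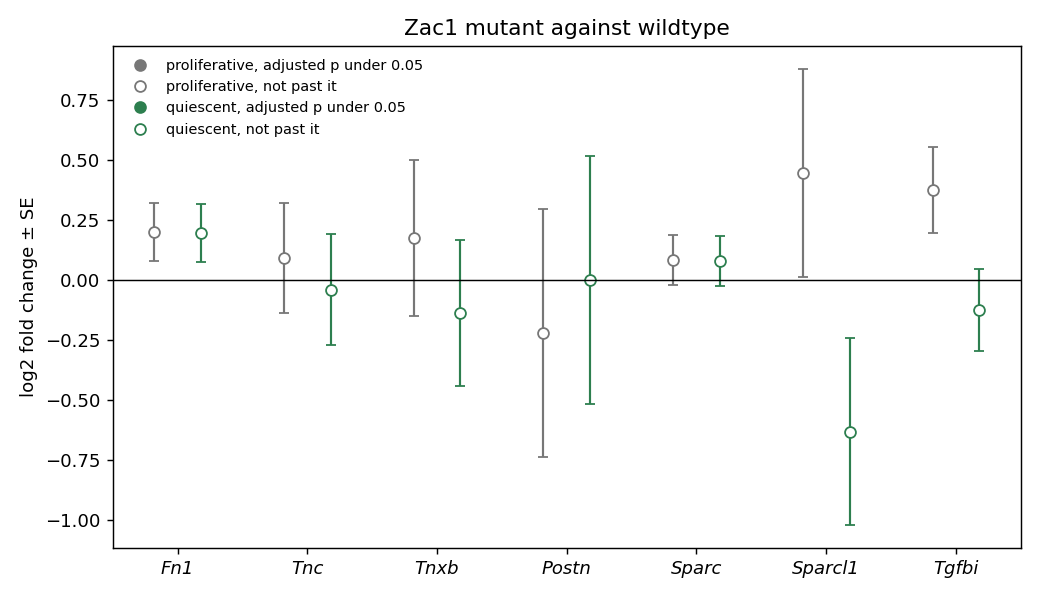
Log2 fold change of mutant against wildtype cells for the 7 tested members, with bars of 1 SE, at day 2 and in the quiescent sums (open symbols, none passed the test). Sparcl1 has the largest values of both states, 0.45 and -0.63, and Sparc the shortest bars.

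Fitted day by day, 0 of the 7 members were called between genotypes at days 8, 10 and 12, against 0.00648% of 15439 genes on each day. Fn1 had its largest difference at day 12 (log2 0.39, SE 0.15, edgeR adjusted p = 1.00), and the lines were then 23836 and 25099 CPM in mutant against 16872 and 20519 in wildtype cells. Sparcl1 differed by log2 -0.28 (SE 0.44) at day 8, -0.90 (SE 0.44) at day 10 and -0.80 (SE 0.45) at day 12, with edgeR adjusted p of 1.00, 0.526 and 1.00.

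The difference between genotypes in the change of state was tested by an interaction term. It was called for 0 of the 7 members and for 0% of all genes by edgeR (265 genes had an unadjusted p under 0.05, DESeq2 called 1 gene and limma-voom 0). Sparcl1 and Tgfbi had the largest values, with a change of state smaller in mutant cells by 1.08 (SE 0.58) and 0.50 (SE 0.25) on the log2 scale (fitted terms -1.08 and -0.50, edgeR adjusted p = 1.00 for both). Sparcl1 was called in wildtype and not in mutant cells, and a difference between them was not shown by this test. For the other 5 members the term lay between -0.31 for Tnxb and 0.22 for Postn.

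Genes related to the members or acting with their products were described from 5 lists. The counts below stand against 23.9% of all genes called higher and 23.7% called lower in wildtype cells. In mutant cells these shares were 21.1% and 21.0%. Of 8 tested relatives (tenascins, SPARC-related genes and stabilins), 5 rose and 0 fell at quiescence in wildtype cells (median log2 1.39) and 4 rose in mutant cells (median 1.58). Spock3, which encodes a SPARC-related proteoglycan, had 2.47 ± 0.571 CPM at day 2 and 16.1 ± 4.57 at quiescence (log2 2.72, SE 0.25, edgeR adjusted p = 2.03e-05). The SPARC-related Fstl1 rose by log2 1.13 (SE 0.13, adjusted p = 9.61e-05) and Smoc2 by 0.88 (SE 0.18, adjusted p = 0.00276). Stab2, a receptor with fasciclin domains, was called at levels of 0.0377 ± 0.0296 and 0.262 ± 0.113 CPM (edgeR adjusted p = 0.0190).

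The 16 receptors, mostly integrin subunits, were divided, with 6 that rose and 6 that fell in wildtype cells (median log2 -0.37) and 6 and 5 in mutant cells (median -0.48). Plaur, the urokinase receptor, which also binds vitronectin, fell from 172 ± 1.86 CPM at day 2 to 27.4 ± 1.74 (log2 -2.65, SE 0.11, edgeR adjusted p = 6.41e-07). Itga8, an integrin chain that binds fibronectin and tenascin-C, rose from 23.3 ± 0.822 to 106 ± 18.7 CPM (log2 2.19, SE 0.15, adjusted p = 3.90e-06). Itgb8, whose integrin binds latent TGF-beta, rose by log2 3.30 (SE 0.36, edgeR adjusted p = 6.30e-05) and the collagen receptor Ddr2 by 0.89 (SE 0.10, adjusted p = 8.86e-05). Itga5 and Itgb1, the classical fibronectin receptor, were added for their role after their values were seen. They fell in wildtype cells by 0.84 (SE 0.11, edgeR adjusted p = 2.30e-04) and 0.41 (SE 0.14, adjusted p = 0.0395) on the log2 scale. In mutant cells Itga5 fell by 0.81 (SE 0.11, adjusted p = 3.72e-04), and Itgb1 was at log2 -0.35 (SE 0.14, adjusted p = 0.0774).

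Of 20 genes whose products assemble with the members in the matrix, 12 rose and 2 fell in wildtype (median log2 0.83) and 11 rose and 2 fell in mutant cells (median 0.75). Col3a1, a fibrillar collagen chain, rose from 366 ± 29.5 CPM at day 2 to 7727 ± 1008 (log2 4.40, SE 0.14, edgeR adjusted p = 2.09e-07). The collagen chain Col1a2 rose by log2 1.79 (SE 0.11, adjusted p = 2.31e-06) and the proteoglycan decorin, Dcn, by 4.44 (SE 0.29, adjusted p = 1.27e-05). Among 16 tested proteases that cleave matrix glycoproteins, 11 rose and 2 fell (median 1.03), and in mutant cells 10 rose and 2 fell (median 0.91). The gelatinase gene Mmp2 rose from 231 ± 19.3 to 1148 ± 158 CPM (log2 2.31, SE 0.15, adjusted p = 2.98e-06), with the aggrecanase Adamts4 at 2.28 (SE 0.19), the cathepsin Ctsk at 1.73 (SE 0.19) and the plasminogen activator Plat at 1.34 (SE 0.12), all called.

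The 10 genes listed as known targets of TGF-beta, the growth factor for which Tgfbi is named, mostly moved against Tgfbi. Postn and Tgfbi, which both rose, were left out of this list because they are members. In both genotypes 7 of the 10 listed genes fell and 1 rose, with a median log2 of -0.75 in wildtype and -0.53 in mutant cells. Smad7, the inhibitor that the pathway induces, was at 65.8 ± 6.95 CPM on day 2 and 18.3 ± 0.238 later (log2 -1.85, SE 0.12, edgeR adjusted p = 2.62e-06) and Ctgf fell by 1.15 on the log2 scale (SE 0.16, adjusted p = 3.12e-04). The gene that rose was Col1a1 (log2 1.42, SE 0.13, adjusted p = 1.74e-05), which also stands in the list of assembly partners. The medians of these 5 lists compare with 0.05 over all genes in either genotype. Between genotypes, and for the interaction, 0 genes of any of the 5 lists were called.

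**Figure D5:**
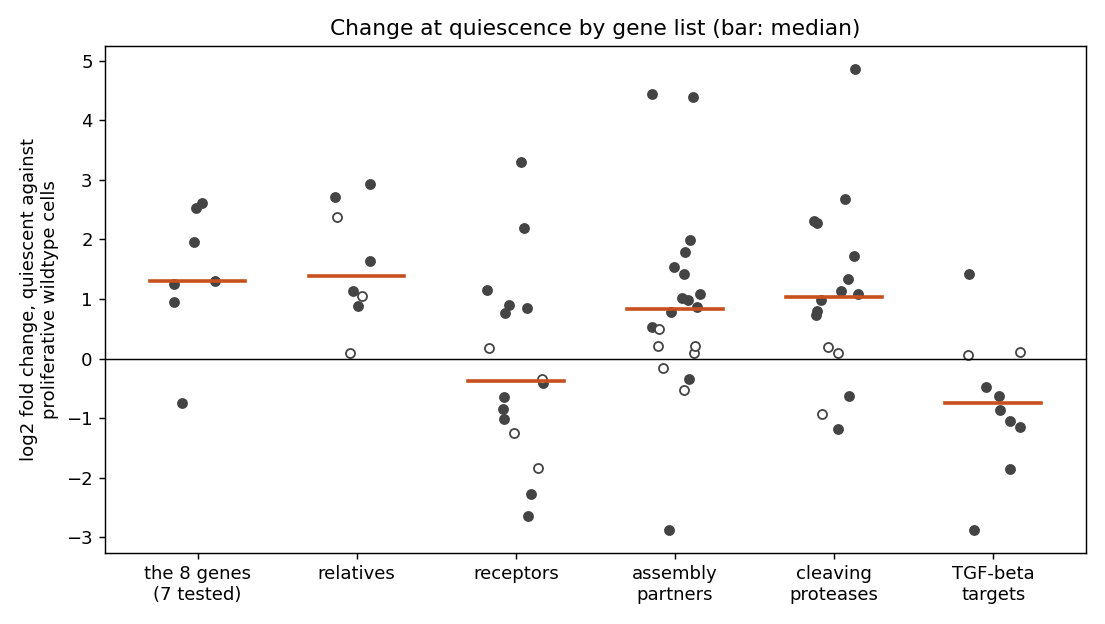
Log2 fold change of quiescent sums against day 2 in wildtype cells for the members and 5 lists of related genes, 1 point per tested gene (filled where the edgeR adjusted p is under 0.05), with a bar at the median. Medians are 1.31 for the members, 1.39, 0.83 and 1.03 for relatives, partners and proteases, and -0.37 and -0.75 for receptors and TGF-beta targets.

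Some genes followed single members closely over the 16 libraries. Likeness was measured by Pearson's r of log2 CPM among genes with a mean of at least 5 CPM (9929 or 9930 genes per member), and the 3 highest are named for each. The genes most like Fn1 were Odz4 (0.979), Slc8a1 (0.975) and Cdk14 (0.975), and those most like Tnc were Ptprb (0.975), Arid3a (0.972) and Crmp1 (0.969). Postn was followed by Phex (0.988), Bfar (0.982) and Camk4 (0.979), and Tgfbi by Prss35 (0.993), Calcoco1 (0.989) and Wdr72 (0.988). Sparc had Igfbp2 (0.993), Kank4 (0.988) and Pdgfrl (0.988). The 2 members with few reads had lower best values, with Tmem64 (0.937), Ccdc141 (0.933) and Pcdh10 (0.933) for Sparcl1 and Slfn5 (0.871), Bcl2l2 (0.868) and Adamts10 (0.863) for Tnxb. These values describe libraries that share the step from day 2 to quiescence. Between members, Postn and Sparc had an r of 0.953 over 16 libraries and 0.720 over the 12 quiescent ones, whereas Fn1 and Tgfbi went from 0.879 to -0.591.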

How the data were processed

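The authors deposited raw read counts, whole numbers for each gene and library without normalization, and the groups, days and replicate numbers of the 16 libraries come from the labels. Per the labels' protocols, stranded libraries were made from DNase-treated total RNA. The submitters' processing notes name HTSeq 0.6.1p1, Bowtie2 2.2.9, TopHat2 2.1.1 and bcl2fastq 2.18, and as genome build mm9. Which annotation was used and how the counting treated strand are not given in the sources used here. Without them, reads of genes that overlap on opposite strands cannot be told apart. In GENCODE vM21 that concerns Fn1 with Apol7d (at most 18 counts in a library), Tnc with 8030451A03Rik and Tnxb with the pseudogene Cyp21a2-ps.

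From these counts, CPM with TMM scaling were computed, and divided by the union of a gene's exons (GENCODE vM21, GRCm38) where genes are compared. The counts of days 8, 10 and 12 were summed per line, giving 8 summed libraries in 4 groups. Genes were kept by filterByExpr (15740) and tested with edgeR 4.0.16 in R 4.3.3 (quasi-likelihood, robust, 4 residual degrees of freedom), with Benjamini-Hochberg adjustment over all of them and calls under 0.05. Comparisons within or between single days used all 16 libraries, grouped by genotype and day, for 15439 genes with 8 residual degrees of freedom. An SE is the size of the log2 fold change divided by the root of the F value. The procedure was also run on simulated counts, with the same spread for every gene and independent libraries. That setting is simpler than these data, so it does not show how the tests behave with repeated harvests of a line. Alternatives were RLE and upper quartile scaling, DESeq2 1.42.0, limma 3.58.1 (voom, line as random block), other count filters, a fold change threshold of 1.5, leaving out lines or days, the libraries of a comparison alone, and blocks. A gene length from the longest transcript was added after seeing the data.

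The members and lists were chosen with earlier results of these data known. All members, Plagl1, up to 4 genes with the smallest p at quiescence in wildtype cells per list, and the 3 genes most like each member are named. A gene that met this rule is not reported here. Of the list symbols, 2 were found under an older name in the table.

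The same line was harvested in each state and on each day, so the labels pair the libraries of a line when states or days are compared. The main fits did not use this pairing, which entered only in the alternatives with the cell line as a block. Deviations from the group means correlated between the states of a line with r of 0.196 in wildtype and 0.248 in mutant cells over 15740 genes. Between genotypes the lines share a number and a letter, I or L, whose meaning no label states, and this was not taken as a pairing (r of -0.03 at day 2 and 0.01 at quiescence). Libraries of one group differed by a chi-square per degree of freedom of 32.4 to 69.6, more than counting error gives, and each was kept as a sample of its own.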

Additional observations from a re-analysis of the deposited data

How the results depend on the processing

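Across the alternatives, the state calls of Fn1, Sparc and Tgfbi kept their direction and their side of the threshold in both genotypes, and the lost calls of Tnc, Tnxb, Postn and Sparcl1 are given with the results. Leaving out one line at a time gave 4 to 7 wildtype and 4 to 6 mutant members called between states. A fit with fewer lines also has fewer degrees of freedom, and the calls over all genes moved as well. Between days 8 and 12 DESeq2 called 1 member (Sparc) in each genotype where edgeR called 0, and the cause was not tested. The cell-line replicate block left 7 and 6 members called between states. The block on the replicate number, which the genotypes share with a letter of unstated meaning, left 0 members called between genotypes.

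No genotype difference of a member passed under any alternative, but several small ones changed sign. In the quiescent sums Postn was 0.076 with the replicate block on the replicate number, 0.014 without day 10 and 0.094 without day 12, and without day 10 Tnxb was 0.017 and Sparc -0.012 on the log2 scale. With lines left out in turn the quiescent differences ran from -0.56 to 0.39 for Postn, -0.32 to 0.27 for Tnc, -0.32 to 0.10 for Tgfbi and -0.66 to 0.25 for Tnxb. At day 2 they ran from -0.90 to 0.24 for Postn, -0.14 to 0.28 for Tnc and -0.0077 to 0.41 for Tnxb.

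Counts over all genes moved more. Between states, 7486 wildtype and 6633 mutant calls became 3452 and 2703 in the test against a fold change of 1.5, and wildtype calls were 4185 to 7755 with lines left out in turn. Day 12 against day 8 gave 0 to 306 calls in wildtype and 6 to 357 in mutant cells, and genotype at day 10 gave 0 to 51. Depth limits Tnxb and Sparcl1 most, with counting intervals of 9.95% to 26.9% and 14.3% to 48.0% of the value to either side, and leaves Vtn without a test.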
